A study of Mus musculus with 6 samples.

Results

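The 9 genes followed here are known as markers of CA1 pyramidal cells: Wfs1, Fibcd1, Pou3f1, Man1a, Mpped1, Spink8, Gpr161, Ndst4 and Lefty1. They are 9 of the 22180 genes that the arrays measured with a probe row naming a single gene, and each of them had 1 such row. The RNA, given by the labels as hippocampal, was read on 6 Affymetrix arrays, 3 for ethanol and 3 for saline, and each array held a pool of 3 of the 18 male C57BL/6J mice. Pups of the ethanol group received 2.5 g/kg ethanol in 0.15 M NaCl under the skin, in 2 injections 2 hours apart on postnatal day 4 and again on postnatal day 7, and littermates of the control group received saline. The tissue characteristics give an age of 21 days, while the treatment protocol gives day 70. The series title calls the animals adolescent, and age was not tested.

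CA1 is the field of the hippocampus that sends most of its output to the subiculum and cortex, and its pyramidal neurons are studied for long-term potentiation and place coding. The genes are known for marking these neurons against the neighbouring CA3 and dentate gyrus cells in situ. They share no pathway: they include proteins of the endoplasmic reticulum and Golgi apparatus, a transcription factor, a ciliary receptor, an enzyme of heparan sulphate and secreted proteins. None is exclusive to CA1, and Wfs1, for one, is also known from striatum and neocortex.

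Markers of the labelled tissue and of other tissues were read first, each as its level on its own probe, which does not rank transcripts. Of 10 genes of telencephalic pyramidal neurons 6 were below the median gene at 7.10: the transcription factors Emx2 (5.28, the dimmest), Tbr1 (5.74), Emx1 (6.39), Fezf2 (6.45), Neurod6 (6.76) and Lhx2 (6.96). The other 4 were above it: Slc17a7, a vesicular glutamate transporter that cerebellar granule cells also make (10.95, the brightest), the transcription factor Neurod2 (10.58), the kinase Camk2a (9.76) and Nrgn (7.60). All 10 cerebellar granule cell genes were above the median gene, from Barhl1, a transcription factor, at 7.45 to Gabra6, a GABA-A receptor subunit, at 12.17. Of 6 Purkinje cell genes 5 were above it, with Car8 at 12.44 the brightest and Skor2 at 6.36 the dimmest. As percentiles over all genes, the granule cell list ran from 57.9 (Barhl1) to 99.8 (Gabra6) and the Purkinje list from 32.8 (Skor2) to 99.9 (Car8). The telencephalic list ran from 14.5 (Emx2) to 98.7 (Slc17a7). These cerebellar lists thus read mostly above the median gene, and several of their genes near the top, in RNA that the labels call hippocampal. The makeup of the tissue was not tested. Nor was it tested which cells gave the signal of the telencephalic list, its 4 genes above the median included, or of the 9 CA1 genes. The mean level of the cerebellar granule list lay between 10.01 and 10.03 on the ethanol arrays and between 9.95 and 9.98 on the saline arrays, with 8 of 10 genes higher in ethanol. For the telencephalic list it lay between 7.57 and 7.63 in ethanol and between 7.58 and 7.84 in saline, with 7 of 10 lower. The 9 CA1 genes averaged 6.87 to 6.91 in ethanol and 6.90 to 7.03 in saline. All 7 genes of myelinating oligodendrocytes, all 8 astrocyte genes and all 8 endothelial and mural genes had higher means in ethanol, where 49.3% of all rows were lower. Their list means ran from 10.71 to 11.09 in ethanol and 10.74 to 10.98 in saline for oligodendrocytes, 10.14 to 10.25 and 9.97 to 10.18 for astrocytes, and 8.72 to 8.80 and 8.57 to 8.80 for vessels. The part of these cell types in the CA1 differences was not tested. Every measured gene of these lists was brighter than the median gene. The SD over all rows was 2.02, 2.03 and 2.00 on ethanol arrays 1 to 3. On saline arrays 1 to 3 it was 2.01, 1.97 and 1.98. Whether brightness goes with direction was not tested. Saline array 1 stood apart from the other 5 arrays in several genes, and the CA1 results are given with and without it.

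None of these genes was called different between ethanol and saline, and with 3 arrays per group the estimates were imprecise. The 95% interval of the limma fit ran from -33.6% to 8.49% for Ndst4 and from -12.6% to 32.2% for Man1a. For Wfs1 it ran from -13.0% to 11.3%. The mean was lower in ethanol for 7 of the 9 and higher for 2, where 49.3% of all 41345 probe rows were lower. The differences ran from -0.24 for Ndst4 to 0.10 for Man1a on the log2 scale, and their median was -0.06, beside 0.00 for all rows. Over the 22180 genes the median was 0.02. Of the 13819 genes between the dimmest and the brightest of the 9, 46.9% were lower and the median was 0.01. Fibcd1 was the only one of the 9 whose groups did not overlap, with a difference of -14.2% in ethanol (95% interval -24.9% to -1.95%), where 6.01% of all rows had groups apart in that direction. After Benjamini-Hochberg adjustment over all rows, limma called 0 of the 9 and 0 of the 41345 rows, a background of 0%. Before adjustment 2290 rows had a limma p under 0.05. Fibcd1 was the 1 CA1 gene among them, where 3.57% of rows passed as lower and 1.97% as higher. Values below are deposited log2 expression values, so a difference of 1 is a doubling, and differences are ethanol minus saline with the standard error of the limma fit. The 95% intervals come from the same fit, and pooling animals means that the tests measure the spread between pools. Fewer CA1 cells, less RNA per cell and a different makeup of the pooled tissue cannot be told apart in such tissue RNA.

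**Figure D1:**
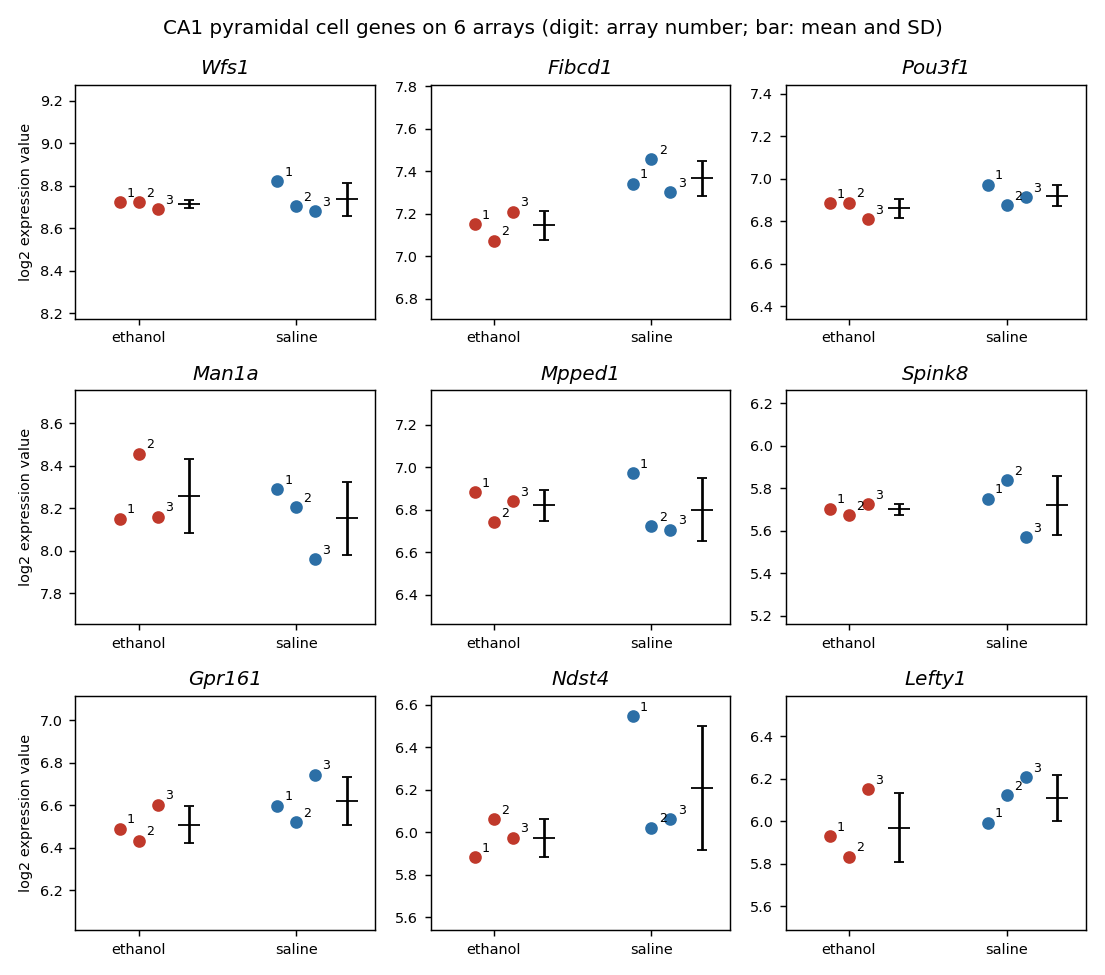
Deposited log2 expression value (vertical axis, of equal length in every panel) of each CA1 gene on 3 ethanol and 3 saline arrays; digits are array numbers, and bars are the mean and SD (n = 3). Fibcd1 lay between 7.07 and 7.21 on the ethanol arrays and between 7.30 and 7.46 on the saline arrays, and in the other 8 genes the groups overlapped.

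Fibcd1 is a membrane protein with a fibrinogen-like domain that binds acetylated sugars. Its gene lies on chromosome 2 from 31813290 to 31846964 (mouse build GRCm38). On ethanol arrays 1 to 3 it stood at 7.15, 7.07 and 7.21, and on saline arrays 1 to 3 at 7.34, 7.46 and 7.30. The highest ethanol array was 0.09 below the lowest saline array. The means were 7.15 ± 0.07 for ethanol and 7.37 ± 0.08 for saline (SD, n = 3), a difference of -0.22 ± 0.08 with an unadjusted p of 0.0301 and an adjusted p of 0.857 in limma. The exact permutation test of 3 arrays against 3 cannot go below 0.1. Leaving out 1 array at a time kept the difference between -0.25 and -0.18. The unadjusted limma p was 0.0941 without ethanol array 2, 0.0875 without saline array 2 and 0.0711 without ethanol array 1.

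Wfs1 encodes wolframin, a membrane protein of the endoplasmic reticulum involved in calcium storage and the unfolded protein response, whose loss causes Wolfram syndrome. The gene lies on chromosome 5 from 36966104 to 36988982. The ethanol arrays read 8.72, 8.72 and 8.69, and the saline arrays 8.82, 8.70 and 8.68. All arrays lay within 0.14, the narrowest range of the 9 genes, and the ethanol values lay between the highest and the lowest saline value. The difference was -0.02 ± 0.08, with a 95% interval from -0.20 to 0.15 and an adjusted p of 0.962 in limma. In percent that interval runs from -13.0% to 11.3%.

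Gpr161 is a receptor of the primary cilium that restrains hedgehog signalling through cyclic AMP. It lies on chromosome 1 from 165281184 to 165326747. It stood at 6.49, 6.43 and 6.60 in ethanol and at 6.60, 6.52 and 6.74 in saline. Ethanol arrays 1 and 2 were below every saline array, while ethanol array 3 was above 2 of them. The difference was -0.11 ± 0.09, with a 95% interval from -0.33 to 0.10 and an adjusted p of 0.870 in limma. Leaving out 1 array gave -0.05 (without saline array 3) to -0.16 (without saline array 2).

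Stretches of 250 bases before a RefSeq transcript start (GRCm38.p6) are shown for these 3 genes. Fibcd1 was the gene whose groups stood apart, Wfs1 the brightest and the one with the narrowest range, and Gpr161 the one with the single window that held the fewest CpG pairs. They run 5′ to 3′ on the gene's strand, and capitals mark CpG, the pair of bases at which mammalian DNA is methylated:
Fibcd1, chr2:31846006-31846255, minus strand: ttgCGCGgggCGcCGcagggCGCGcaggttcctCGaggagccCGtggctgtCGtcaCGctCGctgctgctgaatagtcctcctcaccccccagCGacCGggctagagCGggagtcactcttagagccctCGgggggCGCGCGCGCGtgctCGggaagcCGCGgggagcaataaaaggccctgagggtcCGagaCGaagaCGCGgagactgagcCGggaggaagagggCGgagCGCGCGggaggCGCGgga
Wfs1, chr5:36988983-36989232, minus strand: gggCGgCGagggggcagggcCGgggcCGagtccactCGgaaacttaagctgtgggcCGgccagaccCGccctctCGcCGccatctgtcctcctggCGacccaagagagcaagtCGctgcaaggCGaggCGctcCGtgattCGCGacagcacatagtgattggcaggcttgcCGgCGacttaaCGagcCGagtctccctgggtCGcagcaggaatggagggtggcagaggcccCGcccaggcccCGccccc
Gpr161, chr1:165295516-165295765, plus strand: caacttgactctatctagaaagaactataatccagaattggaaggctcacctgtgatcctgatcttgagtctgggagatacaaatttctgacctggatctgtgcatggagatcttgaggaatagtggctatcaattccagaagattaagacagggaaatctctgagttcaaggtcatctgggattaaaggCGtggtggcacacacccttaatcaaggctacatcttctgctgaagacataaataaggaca
The Fibcd1 window held 34 CpG pairs and was 71.6% G and C. The Wfs1 window held 23 and was 69.6% G and C, and the Gpr161 window shown held 1 and was 42.4% G and C. A second Gpr161 window, not shown, held 5 and was 46.8% G and C. The median over 32851 RefSeq windows of that length was 6 pairs and 52.4%. The Wfs1 window abuts the end of the gene model, whereas the Fibcd1 and Gpr161 windows lie inside the annotated span of their genes, upstream of one transcript start. RefSeq windows were matched for 5 of the 9 genes, with 7 windows in all, the other matched genes being Man1a and Mpped1, and no window was matched to Pou3f1, Spink8, Ndst4 or Lefty1 in the table used here. Searched on both strands, 0 of the 7 windows held the POU octamer ATGCAAAT, the motif that Pou3f1 and its relatives bind, and 1.60% of all windows did. None held the cyclic AMP response element TGACGTCA, found in 1.55% of all windows, the TATA box letters TATAAA, found in 12.4%, or the E-box CAGCTG, found in 13.0%. These are matches of letters and say nothing of binding.

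Ndst4 encodes an N-deacetylase and N-sulphotransferase that modifies heparan sulphate chains in the Golgi apparatus. It lies on chromosome 3 from 125404029 to 125728351. It stood at 5.88, 6.06 and 5.97 in ethanol and at 6.55, 6.02 and 6.06 in saline. Saline array 1 was 0.48 above the next highest array, and the other saline arrays lay among or beside the ethanol values. The difference of -0.24 ± 0.15 was the largest of the 9, but its 95% interval ran from -0.59 to 0.12 and its adjusted p was 0.857 in limma. Without saline array 1 the difference was -0.07 ± 0.09.

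Lefty1 is a secreted member of the transforming growth factor beta family that blocks Nodal, and it lies on chromosome 1 from 180935022 to 180938401. Its values were 5.93, 5.83 and 6.15 in ethanol and 5.99, 6.12 and 6.21 in saline. Ethanol arrays 1 and 2 lay below all saline arrays and ethanol array 3 lay within them. The difference was -0.14 ± 0.11, with a 95% interval from -0.39 to 0.12 and an adjusted p of 0.868 in limma. Leaving out 1 array gave -0.07 (without ethanol array 2) to -0.23 (without ethanol array 3).

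Spink8, on chromosome 9 from 109812203 to 109826628, encodes a secreted serine protease inhibitor of the Kazal type. It read 5.70, 5.67 and 5.73 in ethanol, within 5.57 and 5.84 set by saline arrays 3 and 2, with saline array 1 at 5.75. The saline SD was 0.14 and the ethanol SD 0.03, and the difference was -0.02 ± 0.09 (95% interval -0.23 to 0.20, limma adjusted p = 0.975). The sign turned under quantile normalization, where the difference was 0.03.

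Pou3f1 is a POU domain transcription factor also known for its role in myelinating Schwann cells, on chromosome 4 from 124657646 to 124660655. It stood at 6.89, 6.89 and 6.81 in ethanol and at 6.97, 6.88 and 6.91 in saline. Ethanol array 3 was the lowest and saline array 1 the highest, and the others lay within 0.04 of each other. The difference was -0.06 ± 0.07, with a 95% interval from -0.23 to 0.11 and an adjusted p of 0.905 in limma. Leaving out 1 array gave -0.03 (without saline array 1 or ethanol array 3) to -0.08 (without saline array 2).

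Man1a and Mpped1 had the higher means in ethanol. Man1a encodes a Golgi mannosidase that trims N-linked glycans and lies on chromosome 10 from 53904785 to 54076616. It stood at 8.15, 8.46 and 8.16 in ethanol and at 8.29, 8.21 and 7.96 in saline. The highest value came from ethanol array 2 and the lowest from saline array 3, with the other 4 arrays between 8.15 and 8.29. The difference was 0.10 ± 0.13 (95% interval -0.19 to 0.40, limma adjusted p = 0.904), and it was 0.00 without ethanol array 2 and 0.01 without saline array 3. Mpped1, a metallophosphoesterase-domain protein on chromosome 15 from 83779472 to 83858487, stood at 6.88, 6.74 and 6.84 in ethanol and at 6.97, 6.72 and 6.71 in saline. Its highest array and its lowest array were both saline, and the difference was 0.02 ± 0.10 (95% interval -0.21 to 0.25, limma adjusted p = 0.974). For both genes the groups overlapped.

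**Figure D2:**
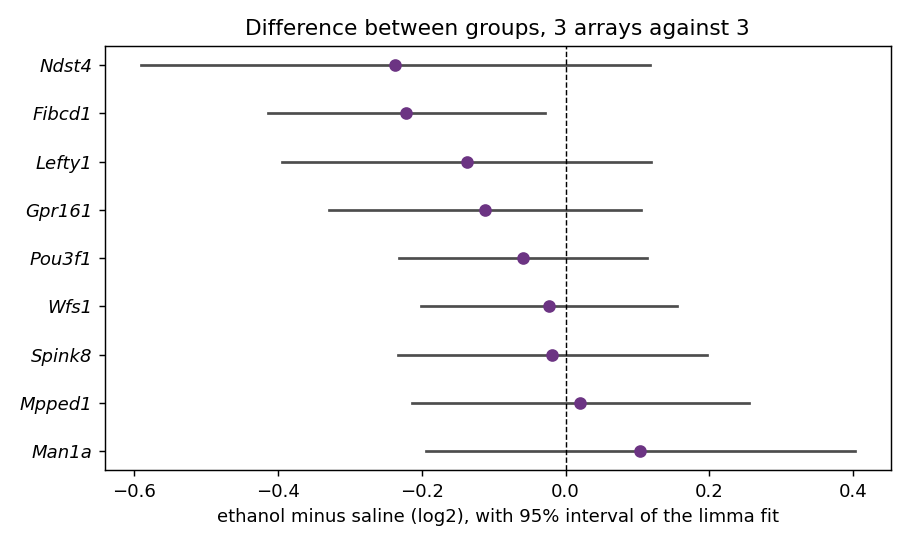
Ethanol minus saline difference (horizontal axis, log2) of each CA1 gene, 3 arrays against 3; points are the limma estimates and lines their 95% intervals. The interval includes 0 in 8 of the 9 genes and runs from -0.41 to -0.03 for Fibcd1, before any adjustment over rows.

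The levels were modest. Binding strength varies from probe to probe, so a level cannot rank transcripts of different genes, and each is given as a percentile over the 22180 genes. Wfs1 stood at percentile 82.3 and Man1a at 73.4. Fibcd1, Pou3f1, Mpped1 and Gpr161 lay between 37.4 and 53.5, and Ndst4, Lefty1 and Spink8 at 26.8, 25.9 and 20.0. As a reference for dim rows, 1373 olfactory and vomeronasal receptor genes, known mainly from the nose, had a median of 4.49 with a 95th percentile of 6.98. Of the CA1 genes 3 were above that percentile: Wfs1 at 8.72, Man1a at 8.20 and Fibcd1 at 7.26 on average. Spink8, at 5.71, was brighter than 77.7% of the receptor genes.

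The spread between arrays of a group was also uneven. The pooled within-group SD was 0.05 for Pou3f1 and 0.06 for Wfs1, at percentiles 5.74 and 10.3 of all genes. It was 0.17 for Man1a and 0.22 for Ndst4, at percentiles 84.3 and 92.7. The median gene had an SD of 0.11, so the precision for Wfs1, Pou3f1 and Fibcd1, at 0.08, was better than for the typical gene.

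The 9 genes did not vary as 1 set over the arrays. Of their 36 pairs, 23 had a positive Pearson correlation over the 6 arrays, with a median of 0.21 and a range from -0.81 to 0.87. With 6 points, and a scaling between arrays that is not given, these describe the arrays only. Wfs1 went with Ndst4 (r = 0.87) and Gpr161 with Lefty1 (r = 0.82), while Man1a ran against Lefty1 (r = -0.81) and Gpr161 (r = -0.80). Saline array 1 read above the gene's own mean for 8 of the 9 genes, Lefty1 being the exception, and ethanol arrays 1 and 2 each read below it for 8. Mpped1 was the exception on ethanol array 1 and Man1a on ethanol array 2. Ethanol array 3, saline array 2 and saline array 3 each had 5 genes below and 4 above.

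**Figure D3:**
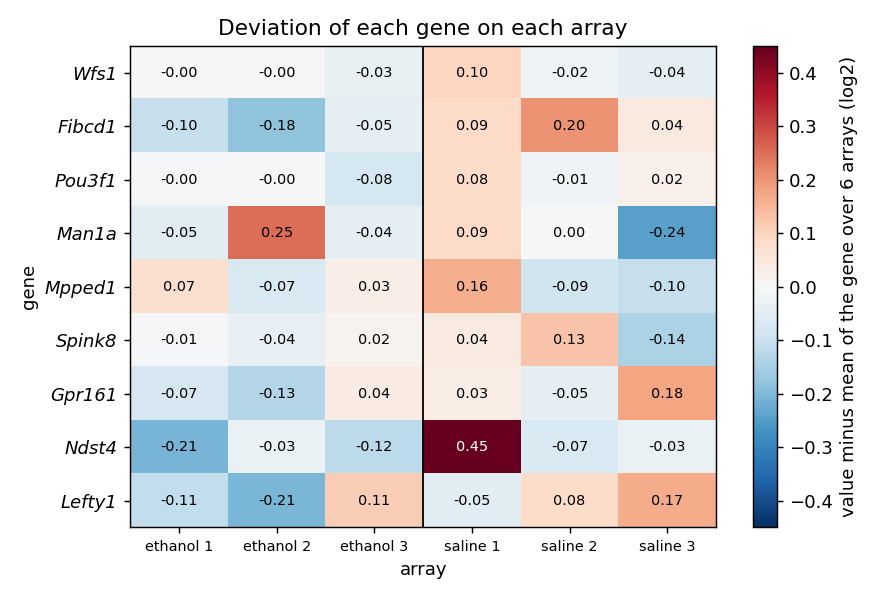
Value minus the gene's mean over 6 arrays (colour and printed number, log2) for each CA1 gene (rows) on each array (columns; the line parts ethanol from saline). Ndst4 on saline array 1 has the highest deviation, at 0.45, and the remaining genes deviate on that array by between -0.05 and 0.16.

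Genes with the most similar profile were ranked over 14312 rows that name a single gene and are brighter than the median row, by Pearson correlation over the 6 arrays with the mean deviation of the 9 genes. The top 5 were Ankrd13b (r = 0.993), Itga5 (r = 0.990), Rassf8 (r = 0.987), Pomc (r = 0.986) and Hoxa6 (r = 0.982). In each of these the highest array was saline array 1, at 8.70 against 8.51 to 8.60 on the others for Ankrd13b. So many rows against 6 points yield high values readily, and nothing is read from the names.

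Saline array 1 also stood apart in other genes, and the 4 named here were chosen after their values were seen. Nrgn, neurogranin of forebrain neurons, stood at 9.11 there and at 7.17 to 7.48 on the other 5 arrays. The interneuron peptides Sst and Npy were at 9.54 and 9.30 there against at most 8.66 and 8.74, and Camk2a, a kinase of excitatory neurons, was at 10.16 against at most 9.75. Over the CA1 genes the median excess of saline array 1 above the other arrays was 0.10, and it was the highest array for 4 of 9: Wfs1, Pou3f1, Mpped1 and Ndst4. The excess was not limited to neuronal lists: its median was 0.17 over oligodendrocyte precursor genes, 0.16 over microglia genes and 0.15 over interneuron genes. Over the telencephalic list that holds Nrgn and Camk2a the median was 0.02 and the mean 0.23. Other lists went the other way, with a median of -0.04 over cerebellar granule cell genes and -0.11 over choroid plexus genes. Over all genes the median excess was 0.02, and 21.2% had their highest value there. Without saline array 1, 6 of the 9 genes were lower in ethanol and their median difference was -0.03. Fibcd1 was at -0.23 without it, Lefty1 at -0.20, Gpr161 at -0.12, Ndst4 at -0.07, Pou3f1 at -0.03 and Spink8 at -0.003. Man1a was then at 0.17 and Mpped1 at 0.11, and Wfs1 turned to 0.02. Whether the RNA of that pool differed in tissue makeup was not tested.

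**Figure D4:**
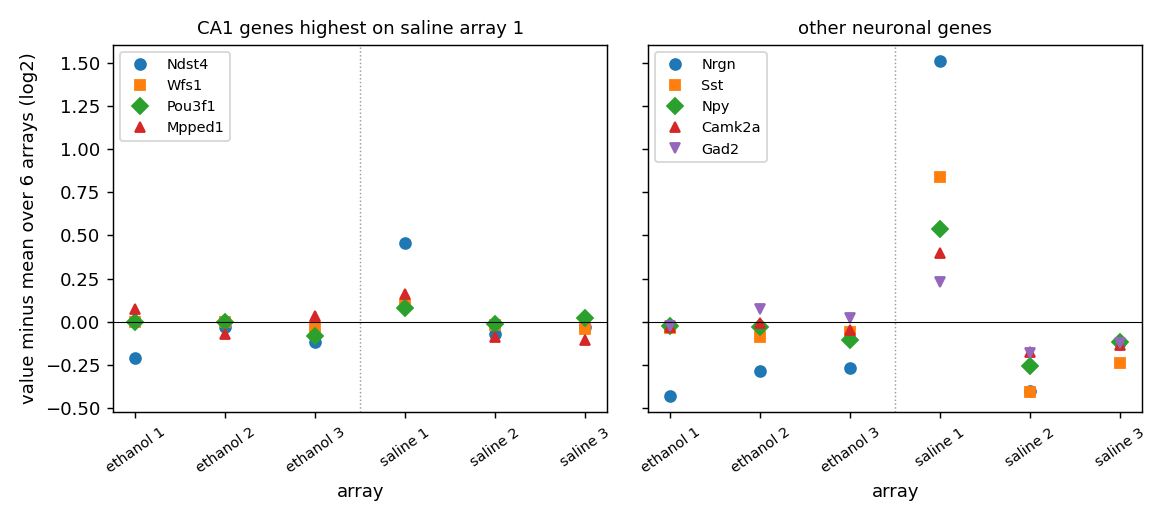
Value minus the gene's mean over the 6 arrays (vertical axis, log2) by array, for the 4 CA1 genes that are highest on saline array 1 (left) and for 5 other neuronal genes (right). Nrgn on that array is 1.63 above the next highest array, and Ndst4 is 0.48 above it.

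Among genes of neighbouring hippocampal fields, 5 of 10 dentate gyrus granule cell genes were lower in ethanol, with a median difference of -0.01. Of 9 CA3 and CA2 genes 3 were lower and 6 higher, with a median of 0.04, and in Iyd and Amigo2, named after their values were seen, the groups did not overlap, both lower in ethanol, beside 6.01% of all rows. Of 11 further genes known to be enriched in CA1, 7 were lower and 4 higher (median -0.03), 0 had an unadjusted p under 0.05 in limma and 0 had groups apart. The serotonin receptor Htr1a and the potassium channel Kcnq5 had the lowest p among them, at -0.14 ± 0.08 and -0.15 ± 0.08. The difference between the CA1 genes and these lists was not tested.

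Relatives and pathway partners of the CA1 genes gave the following counts, and limma called none of them over all rows. For Fibcd1, 9 of 13 other fibrinogen-domain genes were lower in ethanol, with a median of -0.04, and 1 had an unadjusted p under 0.05. That was Angpt2, an angiopoietin, which averaged 5.95 ± 0.02 over the ethanol arrays and 6.15 ± 0.11 over the saline arrays (SD, n = 3). Its groups did not overlap, and the groups of Fcna, a ficolin, stood apart in the same direction (-0.15 ± 0.08) and those of Fgl1 in the other (0.15 ± 0.08), where 5.06% of all rows had groups apart with ethanol higher. For Spink8, 7 of 10 other Kazal inhibitor genes were lower, with a median of -0.08. All 11 measured genes of the list, Spink8 included, were below the median gene. Spink4 averaged 5.47 ± 0.05 over the ethanol arrays and 5.81 ± 0.10 over the saline arrays (SD, n = 3), a difference of -0.35 ± 0.08 with an unadjusted p of 0.00460 and an adjusted p of 0.857 in limma. Spink13 was at 3.32 ± 0.11 and 3.60 ± 0.05, below the median of the olfactory receptor genes, with a difference of -0.28 ± 0.09 (limma unadjusted p = 0.0144). These 2, Spinkl at -0.20 ± 0.09 and Spink5 had groups apart, all lower in ethanol, so 4 of 10 did so, beside 6.01% of all rows.

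For Wfs1, 17 of 18 other genes of endoplasmic reticulum stress and calcium storage had a higher mean in ethanol, with a median of 0.08, where 49.3% of all rows were lower. All 19 measured genes of the list, Wfs1 included, were above the median gene. Whether brightness goes with direction was not tested. The list's mean over genes overlapped between groups, at 9.41 to 9.56 on the ethanol arrays and 9.35 to 9.47 on the saline arrays, and its difference from the CA1 genes was not tested. In limma 1 had an unadjusted p under 0.05. That was Edem1, a factor that hands misfolded glycoproteins to degradation, at 0.30 ± 0.12, with overlapping groups. Atf6, a stress sensor of the endoplasmic reticulum, was at 0.14 ± 0.08 with groups apart, and Xbp1, a transcription factor of the same response, at 0.16 ± 0.12. Hsp90b1, a chaperone singled out for its groups after its values were seen, was the other of the 2 genes with groups apart, beside 5.06% of all rows. Cisd2, the second gene of Wolfram syndrome, was the 1 lower, at -0.05 ± 0.09 with means of 7.53 ± 0.08 and 7.58 ± 0.11 (SD, n = 3).

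For Gpr161, 10 of 20 other hedgehog genes were lower and 10 higher. Boc, a co-receptor for hedgehog, stood at 9.65, 9.68 and 9.70 in ethanol and at 9.41, 9.48 and 9.51 in saline, a difference of 0.21 ± 0.07 with an unadjusted p of 0.0218 and an adjusted p of 0.857 in limma. Sufu, which holds Gli factors inactive, was at 0.11 ± 0.07 and Shh, the ligand, at -0.13 ± 0.10. The groups stood apart with ethanol higher in 3 of the 20, Boc, Sufu and Gnas, beside 5.06% of all rows. They stood apart with ethanol lower in 1, Gli1 (-0.10 ± 0.08), beside 6.01%. Gnas and Gli1 were named after their values were seen. For Lefty1, 5 of 12 other Nodal pathway genes were lower and 7 higher (median 0.01), and 0 had an unadjusted p under 0.05 in limma. Its closest relative Lefty2 averaged 5.51 ± 0.29 on the ethanol arrays against 5.56 ± 0.11 on the saline arrays (SD, n = 3), and Nodal, the ligand it blocks, was at -0.08 ± 0.08. The signal transducers Smad4 and Smad3 were at 0.08 ± 0.07 and 0.11 ± 0.13.

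For Ndst4, 6 of 18 other genes of heparan sulphate synthesis were lower and 12 higher (median 0.06), and 0 had an unadjusted p under 0.05 in limma. Hs6st1, Extl3 and Hs3st1 had groups apart with ethanol higher, at 0.14 ± 0.08, 0.13 ± 0.08 and 0.12 ± 0.08, which is 3 of 18 genes beside 5.06% of all rows. Its relative Ndst3 averaged 10.04 ± 0.03 with ethanol and 9.93 ± 0.13 with saline, and Ndst2 7.28 ± 0.11 and 7.31 ± 0.02 (SD, n = 3). Unlike Ndst4, Ndst3 was lowest on saline array 1, at 9.82.

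For Man1a, 6 of 9 other genes of N-glycan trimming were higher and 3 lower (median 0.07), and 0 had an unadjusted p under 0.05 in limma. Man2a2 and Mgat2, enzymes of later steps in the Golgi, had the lowest p, at 0.13 ± 0.08 and 0.11 ± 0.09. The mannosidases Man1a2 and Man1c1 were at -0.00 ± 0.09 and 0.17 ± 0.14. For Pou3f1, 4 of 6 other POU genes were higher and 2 lower, and 0 had an unadjusted p under 0.05 in limma. Pou2f2, Pou4f1 and Pou6f1 had the lowest p, at 0.07 ± 0.08, 0.11 ± 0.14 and 0.07 ± 0.10. Its closest relatives Pou3f2, Pou3f3 and Pou3f4 were at 0.04 ± 0.09, -0.04 ± 0.08 and -0.06 ± 0.11. For Mpped1, both other measured genes of its family were higher, Mpped2 at 0.14 ± 0.08 with groups apart (5.06% of all rows) and Cpped1 at 0.13 ± 0.10.

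**Figure D5:**
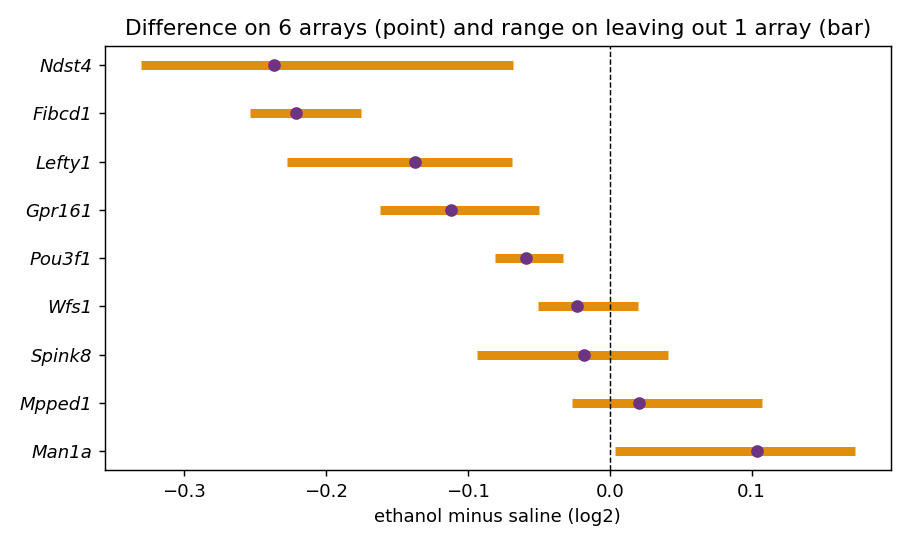
Ethanol minus saline difference (horizontal axis, log2) of each CA1 gene on all 6 arrays (points) and its range when each array is left out in turn (bars). The bars of Ndst4, Fibcd1, Lefty1, Gpr161 and Pou3f1 lie below 0, that of Man1a lies above it, and those of Wfs1, Spink8 and Mpped1 cross it.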

How the data were processed

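Each of the 6 arrays gave 1 column of log2 values over 41345 probe rows in the table the authors deposited. That scale was inferred from how far the values extend, and background correction, summarization and normalization between arrays are not given in the sources used here. The build named is mm 10, per the submitters' processing notes. Platform annotation named 1 gene for 23521 rows, several for 1814, and none here for 16010; a gene's row is its brightest.

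Every row entered 1 limma fit (version 3.58.1, R 4.3.3) of ethanol against saline without covariates or filters. Its two-sided p-values took the Benjamini-Hochberg adjustment across the whole table, with calls at 0.05. The test was checked on simulated data. Standard errors use 4 residual and 2.94 prior degrees of freedom. The number of arrays limits the precision. Gene positions and promoter windows come from RefSeq (GRCm38.p6). Motifs and CpG were read from the 250 bases before each start.

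The members, gene lists and tests were chosen with earlier results of these data known. All 9 members are named; of each partner list, up to 3 genes with the smallest unadjusted p and the closest relatives are named, and of marker lists the brightest and dimmest. All 10 telencephalic genes are given. Chosen after their values were seen were Iyd, Amigo2, Htr1a, Kcnq5, Hsp90b1, Spink5, Gnas, Gli1 and the genes high on saline array 1. Same-numbered arrays are not stated to share animals, and their deviations from the group means correlated at 0.10, -0.06 and 0.04. Alternatives covered scaling, limma's prior, row filters, the row kept per gene, array weights, a replicate block and leaving out arrays.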

Additional observations from a re-analysis of the deposited data

How the results depend on the processing

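Of the alternatives 7 leave each gene's difference as it is by construction (both priors, the block, the row filters and the choice of row, since each gene has 1). Under the other 11, 89 of 99 differences kept their direction. No gene passed an adjusted p of 0.05 in limma under any alternative run, the smallest being 0.532. Direction held under every alternative run for 6 genes, and turned for Wfs1, Mpped1 and Spink8. Spink8 was at 0.031 with quantile normalization, 0.020 with median centring, 0.027 after cyclic loess and 0.055 without both arrays numbered 2, and Wfs1 at 0.016 with median centring. Leaving out 1 array gave -0.093 to 0.041 for Spink8, -0.051 to 0.020 for Wfs1 and -0.026 to 0.11 for Mpped1. The median of the 9 stayed between -0.08 and -0.02. Fibcd1 was lower under all 18 alternatives, between -0.25 and -0.14, but 7 of these cannot move its difference. Its unadjusted limma p was under 0.05 in 12, which include alternatives of that fixed kind. The number of genes with an unadjusted p under 0.05 was 0 with median centring, which raised the median of all rows from 0.00 to 0.04, 0 with the replicate number as a block (limma), 0 without both arrays numbered 2, and 0 to 1 on leaving out 1 array. With the replicate block, limma's unadjusted p for Fibcd1 was 0.0744. Genes with groups apart numbered 3 without both arrays numbered 2 and 1 to 3 on leaving out 1 array, since fewer arrays separate more easily. Of the 5 genes above the median brightness 3 were lower. Over all rows, limma called 0 to 1 on leaving out 1 array, the 1 coming without saline array 3, and 0 otherwise. An adjusted p under 0.25 was tried on all 6 arrays only, and limma called 0 there. The smallest adjusted p in limma was 0.163 without saline array 2 and 0.0459 without saline array 3. The number of arrays and the brightness of Spink8, Lefty1 and Ndst4 limit what can be seen.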
